A study of Mus musculus with 6 samples.

Results

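Cassette exons are exons that a transcript either keeps or skips as a unit. In the macrophages studied here, 1372 splicing events of this kind were measured out of 10376 alternative splicing events in all. They were chosen by the type that JuncBASE, a program that reads splice junctions from RNA-seq alignments, had given each event. Of the 1372, 1256 were single cassette exons, 101 were coordinated cassettes, in which neighbouring exons are kept or skipped together, and 15 were pairs of mutually exclusive exons. They lay in 996 host genes, and all 1372 shared a splice site with an annotated gene. The cells were bone marrow-derived macrophages of wild-type C57BL/6 mice, grown in medium with L929 supernatant and harvested on day 11. Libraries came from 3 cultures after room air exposure of the mice and from 3 after cigarette smoke exposure, and the exposed animals and their controls differed, as far as the labels say, only in that exposure. Its dose and length and the age of the animals are not given in the sources used here. All 7 macrophage markers were abundant in the authors' deposited gene table, at 348 to 24772 mean normalized counts. Of the 15 markers of neutrophils, B cells, T cells, erythroid and stromal cells, 6 were listed, and the highest of these was 22.5.

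A cassette exon changes a messenger RNA in one of a few ways. A coding exon whose length is a multiple of 3 adds or removes amino acids and leaves the downstream reading frame as it was, whereas any other length shifts the frame. Some exons carry an in-frame stop codon far upstream of the last junction. Transcripts that include such an exon are degraded by nonsense-mediated decay, and genes of splicing factors use these exons, often called poison exons, to limit their own expression. Mutually exclusive exons exchange one stretch of sequence for another, and some such pairs arose by duplication.

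In 5 of the 15 mutually exclusive pairs both exons had the same length and both lay in coding sequence. The other 10 pairs differed in length, some widely, as in Lair1 (330 and 36 nt) and Prrc2c (53 and 237 nt). The pairs of Pkm and Tpm1 below are from GENCODE M21 transcripts on GRCm38, each written 5′ to 3′ on the strand of its gene, with the positions that differ between the paired exons in capitals. Pkm encodes pyruvate kinase of muscle and proliferating cells, and its upstream exon gives the M1 form and its downstream exon the M2 form. Tpm1 encodes an actin-binding tropomyosin.
Pkm upstream exon, chr9:59675029-59675195, plus strand: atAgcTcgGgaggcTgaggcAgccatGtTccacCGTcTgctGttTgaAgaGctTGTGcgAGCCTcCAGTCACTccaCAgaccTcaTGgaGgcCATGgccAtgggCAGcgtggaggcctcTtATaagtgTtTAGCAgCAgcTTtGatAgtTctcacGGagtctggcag
Pkm downstream exon, chr9:59675568-59675734, plus strand: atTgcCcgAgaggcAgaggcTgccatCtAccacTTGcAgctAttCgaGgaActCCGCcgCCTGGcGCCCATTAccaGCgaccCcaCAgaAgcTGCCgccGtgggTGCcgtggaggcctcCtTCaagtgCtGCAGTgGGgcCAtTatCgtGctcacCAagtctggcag
Tpm1 upstream exon, chr9:67032466-67032541, minus strand: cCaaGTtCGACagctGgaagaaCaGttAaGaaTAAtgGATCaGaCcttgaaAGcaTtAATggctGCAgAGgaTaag
Tpm1 downstream exon, chr9:67031951-67032026, minus strand: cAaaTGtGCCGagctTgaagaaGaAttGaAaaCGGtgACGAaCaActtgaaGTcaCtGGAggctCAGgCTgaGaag

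Compared position by position, the Pkm exons were identical at 103 of 167 bases (61.7%) and the Tpm1 exons at 43 of 76 (56.6%). Other equal-length pairs were in Calu, which encodes a calcium-binding protein of the secretory pathway (127 of 194 bases identical, 65.5%), and in P4ha1, which encodes a collagen prolyl hydroxylase subunit (42 of 71 bases, 59.2%). Fyn, which encodes a Src-family kinase, has exons of unequal length, the upstream one of 165 nt and the downstream one of 156 nt. The upstream exon belongs to the form best known from brain, and the downstream exon to the form best known from T cells.
Fyn upstream exon, chr10:39529437-39529601, plus strand: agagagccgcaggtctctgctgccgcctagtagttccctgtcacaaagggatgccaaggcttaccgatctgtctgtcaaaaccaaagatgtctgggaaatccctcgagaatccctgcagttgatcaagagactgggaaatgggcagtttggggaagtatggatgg
Fyn downstream exon, chr10:39529919-39530074, plus strand: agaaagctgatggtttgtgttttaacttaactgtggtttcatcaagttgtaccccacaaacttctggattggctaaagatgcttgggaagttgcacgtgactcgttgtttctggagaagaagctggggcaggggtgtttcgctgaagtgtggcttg

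A second set of sequences shows the stop codons that poison exons bring into the reading frame. In 62 events an annotated decay transcript ended its reading frame inside the cassette exon, and 14 of these events lay in 9 genes of a list of 72 splicing regulators. For 7 of those exons the sequence is given from the first base of the exon to the stop codon in capitals.
Sf3b1, exon of 56 nt, chr1:55014869-55014924, minus strand: gcttctattctgctgctTGA
Tial1, exon of 59 nt, chr7:128444042-128444100, minus strand: gtgtcaccaccccaaTAA
Tial1, exon of 68 nt, chr7:128446731-128446798, minus strand: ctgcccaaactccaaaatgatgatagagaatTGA
Srsf11, exon of 117 nt, chr3:158023243-158023359, minus strand: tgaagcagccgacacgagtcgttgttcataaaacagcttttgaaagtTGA
Tra2b, exon of 276 nt, chr16:22258986-22259261, minus strand: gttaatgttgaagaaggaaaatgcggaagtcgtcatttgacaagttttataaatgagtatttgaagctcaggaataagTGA
Srsf3, exon of 456 nt, chr17:29039454-29039909, plus strand: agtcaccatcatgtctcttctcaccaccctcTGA
Rbm39, exon of 73 nt, chr2:156178880-156178952, minus strand: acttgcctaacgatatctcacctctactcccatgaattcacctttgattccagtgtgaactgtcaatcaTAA

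Each event had 1 value per library, the percent inclusion, which is the share of junction evidence that keeps the exon. The depth behind each value is unknown, since the table used here gives no read counts, so no counting interval can be attached to a value. Values were missing most often in 1 library: cigarette smoke 1 had none for 561 of the 1372 events (40.9%), against 33, 0 and 0 in the room air libraries and 9 and 4 in the other smoke libraries. Of the values present, 20.8% to 28.6% were exactly 0 or 100 in the room air libraries. That share was 36.6% in cigarette smoke 1, 35.1% in cigarette smoke 2 and 16.0% in cigarette smoke 3. All 6 libraries gave a value for 794 events. Among the 177 of these with intermediate inclusion (20% to 80%), a pair of room air libraries differed by a median of 3.79 to 4.16 percentage points and a pair of smoke libraries by 6.18 to 6.67. Smoke libraries thus differed more from each other than room air libraries did. Cigarette smoke 3 was nearer to the room air libraries (3.67 to 5.13 points) than to the other smoke libraries (6.18 and 6.67). Cigarette smoke 2 was also nearer to room air (5.55 to 5.93) than to the other smoke libraries (6.35 and 6.18). Cigarette smoke 1 differed from room air by 6.47 to 6.80 and from the other smoke libraries by 6.35 and 6.67.

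Most of these exons were either almost always kept or almost always skipped. Averaged over the libraries, 806 events were above 80% inclusion, 289 were below 20% and 277 lay between. JuncBASE marked a junction as absent from the annotation in 582 events, and 445 of these exons were above 80% inclusion, that is, mostly kept and sometimes skipped. Events built from annotated junctions alone were spread more evenly, with 361 of 790 above 80%, 200 between and 229 below 20%.

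**Figure D1:**
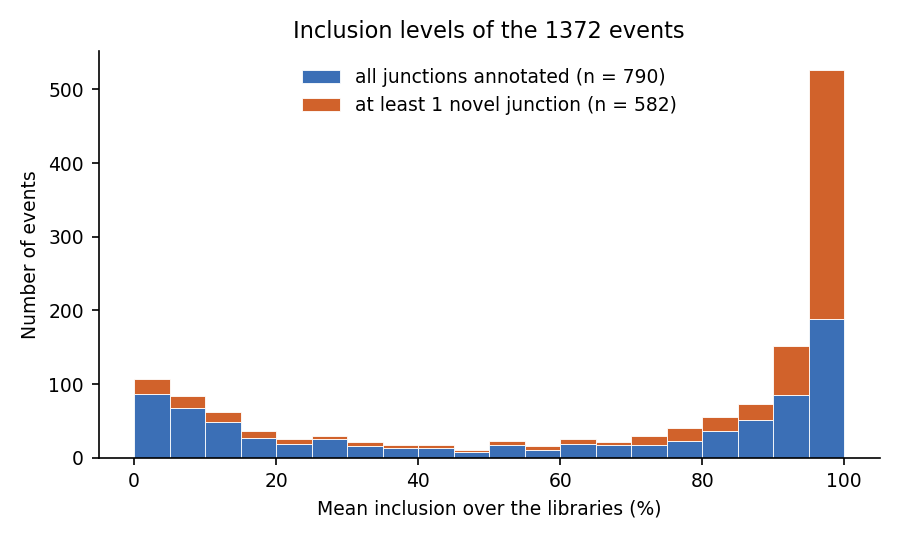
Number of cassette, coordinated cassette and mutually exclusive events (y axis) by mean inclusion over the libraries in percent (x axis, bins of 5 percentage points), with events of annotated junctions only in blue and events with an unannotated junction in orange. Levels pile up at both ends, and events with an unannotated junction make up most of the tallest bar.

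Among exons classed as coding, those rarely included mostly had lengths that preserve the reading frame. Of the 1372 events, 1061 lay wholly in coding sequence, 87 held the start or stop of the reading frame, 87 lay in a 5′ untranslated region, 79 belonged to annotated decay transcripts, 49 to transcripts with no coding sequence, 8 were not annotated as exons and 1 lay in a 3′ untranslated region. Among coding exons below 20% inclusion, 116 of 129 (89.9%) had a length divisible by 3. The share was 84.4% of 211 coding exons between 20% and 80%, and 49.7% of 721 coding exons above 80%. Exons found only in annotated decay transcripts were not classed as coding, so the classes themselves bear on these shares. Over events of every class, the share was 61.2% of 289 below 20%, 70.8% of 277 between and 48.0% of 806 above 80%. In exons of decay transcripts 27.8% of lengths were divisible by 3, and in exons of 5′ untranslated regions 35.6%. Median GC content was close between the levels, at 52.5% in coding exons below 20%, 50.5% in those between and 50% in those above 80%.

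**Figure D2:**
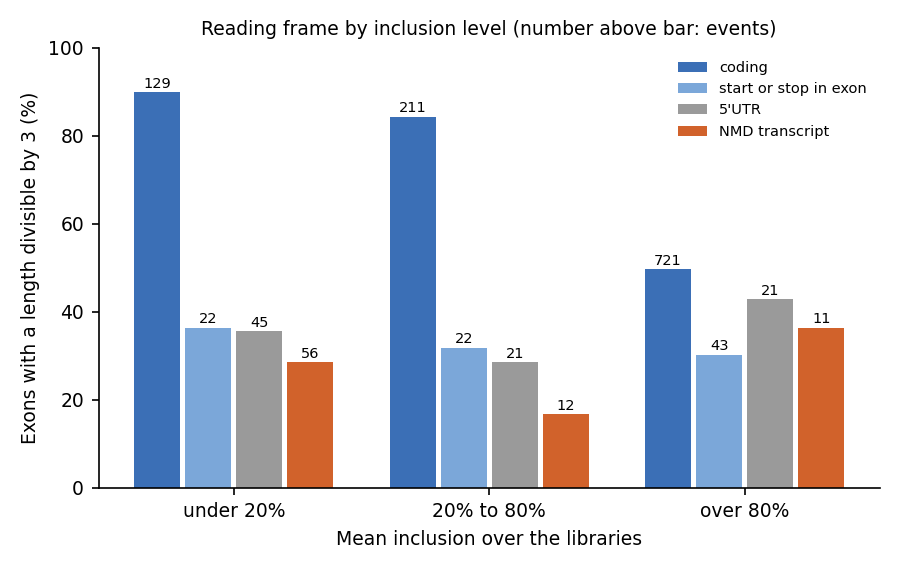
Share of exons with a length divisible by 3, in percent (y axis, from 0), by mean inclusion over the libraries (x axis) and by position of the exon (colours), with the number of events above each bar. Coding exons below 20% and between 20% and 80% stand at 89.9% and 84.4%, and all other bars are below 50%.

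The smallest coding exons, microexons of at most 30 nt, gave 50 events in 49 genes, and in 47 of these events the length kept the frame. The 24-nt exon of Slc38a10 was counted both as a cassette and in a mutually exclusive pair. Their levels were spread widely, with 21 below 20%, 16 between and 13 above 80%. The shortest was the 3-nt exon gag (chr7:45808730-45808732, minus strand) of Cyth2, which encodes an Arf exchange factor. Its inclusion was 58.1%, 52.5% and 63.6% in room air and 64.7%, 62.5% and 54.9% in cigarette smoke, so the groups overlapped. The 6-nt exon catcag (chr16:20540808-20540813, plus strand) of Ap2m1, the medium subunit of the AP-2 clathrin adaptor, stood at 29.4%, 26.6% and 27.7% in room air and at 21.1%, 28.2% and 29.1% after smoke. Picalm, which encodes a clathrin assembly protein, included its 24-nt exon aatggcatgcattttccacaatac (chr7:90194273-90194296, plus strand) at 40.6% to 46.0% in the 6 libraries. Abi1, a subunit of the actin-regulating WAVE complex, included a 15-nt exon at 51.1% to 59.1%. Mean inclusion in the 50 microexon events was lower after smoke in 25 and higher in 25, with a median difference of -0.03 percentage points. None of the 30 with a value in every library had groups that did not overlap, beside 23.1% of all complete events. In 3 of the 50 the unadjusted p was under 0.05, beside 10.8% of all events, and all 3 lacked a value in cigarette smoke 1. The 24-nt exon of Mars, which encodes methionyl-tRNA synthetase, stood at 9.09%, 9.52% and 5% in room air and at 27.3% and 18.2% after smoke. The 15-nt exon of Arhgef10l stood at 18.2%, 17.6% and 11.1% against 0% and 6.90%, and the 18-nt exon of Ctnnd1, which encodes p120 catenin, at 6.67%, 11.5% and 8% against 0% and 2.86%. Adjusted p-values of these 3 were 0.366 to 0.417 (limma, Benjamini-Hochberg).

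Cigarette smoke exposure was compared with room air by limma on the log2 odds of inclusion, with p-values adjusted over all 10376 events by Benjamini-Hochberg. None of the 1372 events passed an adjusted p of 0.05, and neither did any other event (percent called 0). The lowest adjusted p was 0.128. Leaving out cigarette smoke 3 changed this count: 109 of 1344 events passed, 47 higher and 62 lower, beside 10.4% of all 10242 events fitted (2.02% higher and 8.37% lower). In 548 of those fits, and in 70 of the 109 calls, cigarette smoke 2 or cigarette smoke 1 was the only smoke value, so its spread was assumed to be that of room air. With at least 2 values per group 44 of 796 events passed, 36 higher and 8 lower, beside 12% of all 5982 events fitted. Leaving out any other library left 0. At an unadjusted p under 0.05, 65 events (4.74%) were counted, 35 higher and 30 lower after smoke, beside 10.8% of all events, 1.55% higher and 9.29% lower. The direction split depended on scale and level. On untransformed percent 93 events were counted, 23 higher and 70 lower, beside 11.8% of all events (2.35% higher, 9.49% lower). At mean levels of 5% to 95% there were 34 of 739, 9 higher and 25 lower, beside 11.4% (1.65% higher, 9.72% lower). The authors' own JuncBASE p-values were under 0.05 for 58 of the 1372, beside 4.15% of all events in that table, and the lowest corrected value was 0.285. Groups did not overlap in 85 of the 794 complete events (10.7%), 38 higher and 47 lower, beside 23.1% of all complete events, 3.84% higher and 19.3% lower. The share among cassette exons was below that of the whole table. At mean levels of 5% to 95%, 56 of 442 did not overlap, 16 higher and 40 lower, beside 25.3% of all events (4.94% higher, 20.4% lower). Events that only choose between alternative acceptor or donor junctions stood at 10.4% and 10.5%, and retained introns at 38.9%. The other alternative acceptor and donor events stood at 19.8% and 26.3%, and alternative first and last exons at 23.3% and 21.5%.

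The mean over the 794 complete events was 67.3%, 67.6% and 67.7% in the room air libraries and 66.8%, 67.2% and 66.9% in the smoke libraries. Every smoke library was below every room air library. Group means were 67.5% ± 0.187 against 67.0% ± 0.225 (SD, n = 3), so smoke minus air came to -0.55 points. By level the difference was -1.70 points for the 177 events of intermediate inclusion, -0.85 points for the 163 below 20% and 0.01 points for the 454 above 80%. Over all 1372 events the mean was lower after smoke in 764 (55.7%), higher in 607 and equal in 1, with a median difference of -0.77 points, beside 66.2% lower and a median of -1.98 points over all 10376 events. A difference of more than 10 points in either direction was reached by 46 events.

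**Figure D3:**
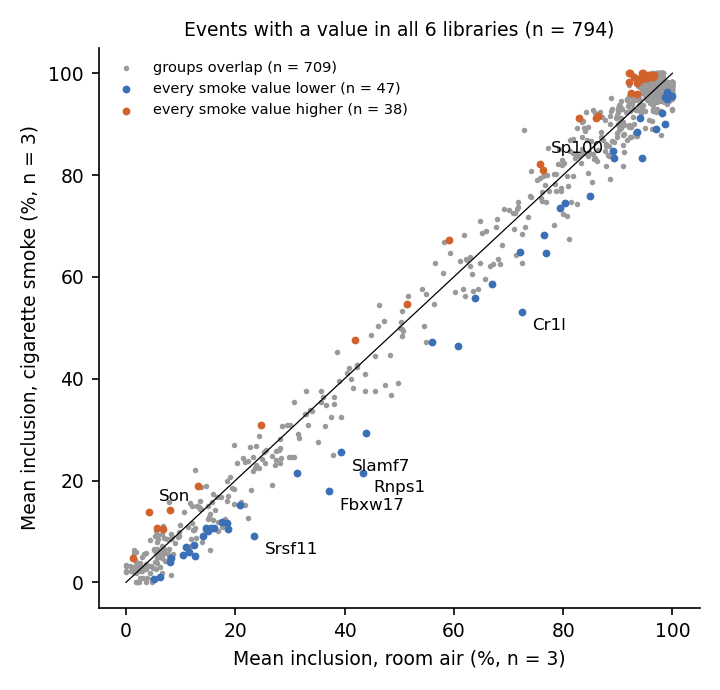
Mean inclusion in the 3 cigarette smoke libraries (y axis, percent) against the 3 room air libraries (x axis, percent) for the 794 events with a value in every library, with the line of equal values. Blue points are the 47 events in which every smoke value was lower and orange points the 38 in which every one was higher; most orange points lie near 100%.

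The 10 events with the lowest p, taken once per gene, were of one kind: in each, every value measured in one of the groups was exactly 0 or exactly 100. Tnfsf13, which encodes the B cell-activating ligand APRIL, came first. Its coding exon of 119 nt was included at 93.8%, 93.6% and 89.6% in room air and at 100% in all 3 smoke libraries. The groups did not overlap, and the log2 odds differed by 3.20 ± 0.456 (SE, adjusted p = 0.128, limma with Benjamini-Hochberg).
Tnfsf13, exon of 119 nt, chr11:69684218-69684336, minus strand: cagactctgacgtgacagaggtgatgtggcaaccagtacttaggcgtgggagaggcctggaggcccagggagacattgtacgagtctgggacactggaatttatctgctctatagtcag

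The same pattern, a smoke group wholly at 100%, was seen for Epsti1, an interferon-induced gene, whose 33-nt exon stood at 95%, 94.4% and 92.0% in room air. Myo1g, which encodes a class I myosin of blood cells, had a 54-nt exon at 92.1%, 97.8% and 93.9% in room air. A 222-nt exon of Ss18, a BAF chromatin remodelling subunit, stood at 91.7%, 93.8% and 97.8%, and a 161-nt exon of Usp1, a deubiquitinase of DNA repair, at 95.7%, 94.4% and 96.4%. Epsti1 and Usp1 had no value in cigarette smoke 1. The reverse, a room air group wholly at 100%, was found for exons of Inf2, Hpf1 and Smim7, with smoke values of 93.3% and 90.3% for Inf2, 87.5% and 95.3% for Hpf1, and 92.9% and 96.5% for Smim7. Inf2 encodes an actin-assembling formin and Hpf1 a cofactor of PARP1. Ssbp4 had a pair of coordinated exons at 0% in the measured room air libraries and at 8.33%, 6.67% and 4.17% after smoke. Adjusted p-values in this set were 0.128 to 0.186 (limma, Benjamini-Hochberg). Of the 65 events with an unadjusted p under 0.05, 20 had one group wholly at 0 or 100, beside 213 of all 1372 events. A mean level between 20% and 80% was found for 3 of the 65, beside 277 of all 1372. How far unknown depth set these values was not tested.

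By size of difference among separated events, another set of genes led. A 181-nt exon of Rnps1, which encodes a splicing activator that joins the exon junction complex, was included at 45.8%, 40.5% and 43.6% in room air and at 15.4%, 22.6% and 26.3% after smoke. Every smoke value was lower, the means were 43.3% ± 2.69 and 21.4% ± 5.56 (SD, n = 3), and the adjusted p was 0.346 (limma, Benjamini-Hochberg). This exon, at chr17:24418038-24418218 on the plus strand, holds the start or the end of a reading frame. A 122-nt exon upstream of it, in a 5′ untranslated region, stood at 25%, 20% and 21.9% in room air and at 8.33%, 22.2% and 7.46% after smoke, so there the groups overlapped. In the authors' deposited table Rnps1 expression was higher after smoke, with a log2 fold change of 0.46 and an adjusted p of 0.0123.

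Cr1l encodes a membrane regulator of complement. Its 105-nt coding exon was included at 82.8%, 65.2% and 69.4% in room air and at 33.3%, 62.5% and 63.6% after smoke. The nearest values of the groups were 65.2% and 63.6%, and the lowest value came from cigarette smoke 1.
Cr1l, exon of 105 nt, chr1:195106818-195106922, minus strand: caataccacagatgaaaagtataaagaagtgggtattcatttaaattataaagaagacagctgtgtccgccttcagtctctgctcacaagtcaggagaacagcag

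The other large differences downward were in Fbxw17, an F-box gene, with a 420-nt exon of a decay transcript at 38.9%, 31.6% and 40.7% against 18.2%, 10.0% and 25.6%. A 108-nt exon of Tcof1, which encodes a nucleolar factor for ribosome synthesis, stood at 45.0%, 36.7% and 50% against 16.7%, 34.8% and 36.7%, where the nearest values of the groups were 36.73% and 36.67%. The 117-nt poison exon of Srsf11, an SR protein gene, stood at 31.2%, 21.4% and 17.9% against 0%, 16.7% and 10.8%. Fitted log2 odds differences of Rnps1, Cr1l, Fbxw17, Tcof1 and Srsf11 ran from -2.26 to -0.95 with adjusted p-values from 0.346 to 0.538 (limma, Benjamini-Hochberg).

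Separated differences upward were smaller. The largest was in Son, which encodes a large scaffold of nuclear speckles. Its 80-nt exon was included at 4.08%, 2.22% and 6.17% in room air and at 16.7%, 15.4% and 9.68% after smoke (means 4.16% ± 1.98 and 13.9% ± 3.72, SD, n = 3; adjusted p = 0.329, limma with Benjamini-Hochberg). Exons of the SNARE genes Vti1b and Stx2 differed by 8.23 and 8.15 points, with 77.8%, 85.0% and 86.0% against 90.9%, 94.7% and 87.9% for the 59-nt exon of Vti1b and 58.8%, 60.8% and 57.6% against 65.6%, 63.2% and 72.9% for the 125-nt exon of Stx2. A version of the Tnfsf13 exon that starts at a nearby acceptor, 116 nt long and overlapping the one above, was next, at 93.8%, 93.8% and 88.9% against 100% throughout. The tightest groups were those of Sp100, which encodes a nuclear body protein: its 54-nt exon stood at 75.0%, 77.6% and 74.9% in room air and at 82.2%, 83.3% and 81.1% after smoke. For Sp100 the difference of 6.38 points was larger than the SD of either group, 1.56 and 1.11 points, yet the adjusted p was 0.617 (limma, Benjamini-Hochberg).
Sp100, exon of 54 nt, chr1:85681086-85681139, plus strand: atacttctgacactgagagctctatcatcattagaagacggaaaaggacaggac

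**Figure D4:**
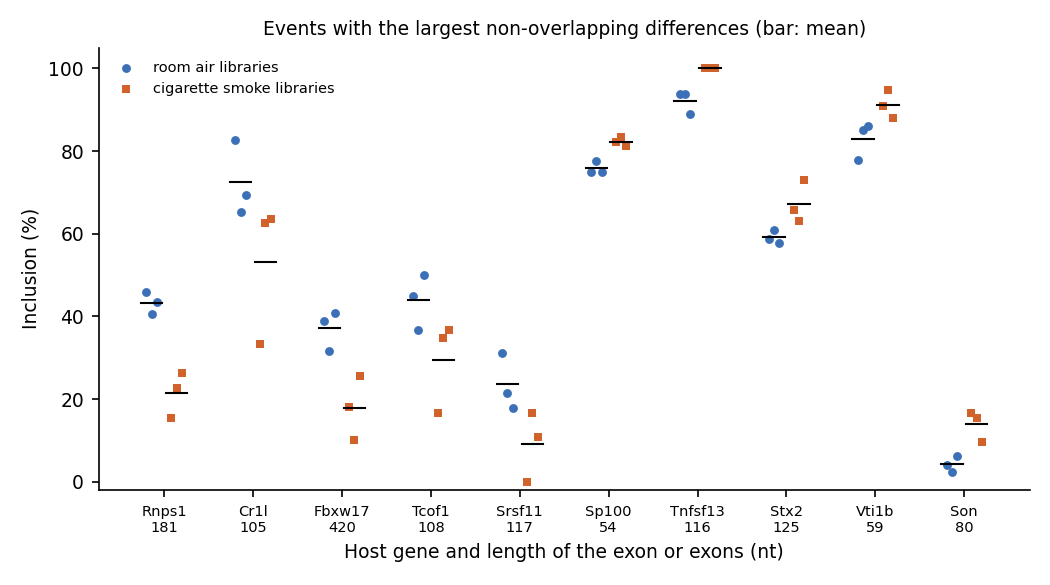
Inclusion in percent (y axis) in each room air library (blue circles) and each cigarette smoke library (orange squares) for the 5 largest non-overlapping differences in each direction, named by host gene and exon length in nt (x axis), with bars at the group means. Rnps1 shows the widest gap, from 40.5% down to 26.3% between the nearest values, and Sp100 the tightest groups.

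Of the 15 mutually exclusive events, 3 had an unadjusted p under 0.05, those of Fyn and Lair1 among them, beside 10.8% of all events. The upstream exon of Fyn, printed above, was used at 4.35%, 7.50% and 8% in room air and at 0% in the measured smoke libraries 2 and 3, so nearly all measured Fyn junctions joined the downstream exon in both groups. Lair1, which encodes an inhibitory receptor for collagen, had the largest difference of all 1372 events, 25.8 points. Its 330-nt exon, set against a 36-nt exon, stood at 5.88% and 20.8% in room air libraries 2 and 3 and at 50%, 36.4% and 31.2% after smoke. The same 330-nt exon, measured as a cassette against skipping, stood at 73.6%, 79.2% and 79.5% in room air and at 77.3%, 73.0% and 80.5% after smoke, with overlapping groups. As a cassette, the 36-nt exon stood at 100%, 100% and 94% in room air and at 80%, 89.5% and 94.1% after smoke, a difference of -10.1 points (adjusted p = 0.366, limma with Benjamini-Hochberg) and the groups overlapped. Adjusted p-values were 0.177 for Fyn and 0.413 for Lair1 (limma, Benjamini-Hochberg).

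Slamf7, which encodes a receptor of the SLAM family, also had a mutually exclusive pair, and its exons were measured in 3 events. The downstream 104-nt exon, set against the upstream 123-nt exon, stood at 38.2%, 42.0% and 37.8% in room air and at 21.4%, 23.1% and 32.0% after smoke. As a cassette, the 104-nt exon stood at 77.4%, 81.8% and 78.8% against 70.7%, 73.2% and 76.9%. The 123-nt exon went the other way, at 86.0%, 87.1% and 86.2% against 91.7%, 94.6% and 88.8%. Groups did not overlap in any of the 3 Slamf7 events, which share junctions, and the adjusted p of the mutually exclusive one was 0.503 (limma, Benjamini-Hochberg).

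The remaining pairs gave the balance of forms in these macrophages. The upstream Pkm exon, of the M1 form, was used at 13.4%, 15.5% and 17.3% in room air and at 15.4%, 16.2% and 8.43% after smoke, so the M2 exon dominated in all 6 libraries. The downstream Tpm1 exon stood at 67.7%, 67.7% and 70.2% against 70.6%, 62.5% and 54.2%. Calu used its upstream exon at 20% to 28.2% and P4ha1 its upstream exon at 30% to 48.1% over the 6 libraries. Mef2a, a transcription factor gene, used its downstream 138-nt exon at 27.3% to 36.9%. Groups overlapped for Pkm, Tpm1, Calu, P4ha1 and Mef2a.

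Splicing regulators hosted 48 events in 29 genes, of which 4 (8.33%) had an unadjusted p under 0.05, beside 10.8% of all events. The mean was lower after smoke in 31 (64.6%, median difference -2.48 points), beside 66.2% and -1.98 points for all 10376 events. Their 14 stop codon events all had a lower mean after smoke, by 0.31 to 14.4 points (median 5.51). Stop codon exons of other genes had lower means in 29 of 48 events and higher means in 18, with a median of -1.58 points. Over the 10 stop codon events of splicing regulators with a value in every library, the mean was 19.2%, 20% and 15.5% in room air and 11.1%, 11.2% and 16.8% after smoke. Cigarette smoke 3 was above room air 3, so the groups overlapped. Left out one at a time, cigarette smoke 2 or room air 1 left 12 of 14 lower, and the other libraries left 13 or 14. Events of Tra2b, Rbm39 and Srsf11 overlap in sequence, so the 14 are not independent.

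Single exons varied between libraries of a group. Sf3b1, a core subunit of the U2 snRNP, included its 56-nt exon at 7.32%, 5.56% and 6.74% in room air and at 0% and 2.38% in cigarette smoke 2 and 3. The 59-nt exon of Tial1, an RNA-binding regulator gene, stood at 12.9%, 8.33% and 3.70% against 0%, 0% and 4.48%, with overlap. The 276-nt exon of Tra2b, which encodes an SR-like activator, stood at 12.5%, 21.2% and 18.9% against 7.14%, 9.38% and 16.4%. Srsf3, the smallest SR protein gene of this group, gave 28.6%, 33.0% and 23.7% against 24.1%, 24% and 25.0%, and Srsf6 gave 34.5%, 43.8% and 30.8% against 26.7%, 35.0% and 30.3%. Rbm39, a U2AF-related factor gene, included its 73-nt exon at 36.4%, 29.7% and 23.5% against 30%, 14.3% and 29.6%. Unadjusted p was under 0.05 for Sf3b1 and the 59-nt exon of Tial1 among the 14, with adjusted p of 0.385 and 0.407 (limma, Benjamini-Hochberg). The Son exon described above is also annotated in a decay transcript, without holding the stop codon, and went the opposite way.

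**Figure D5:**
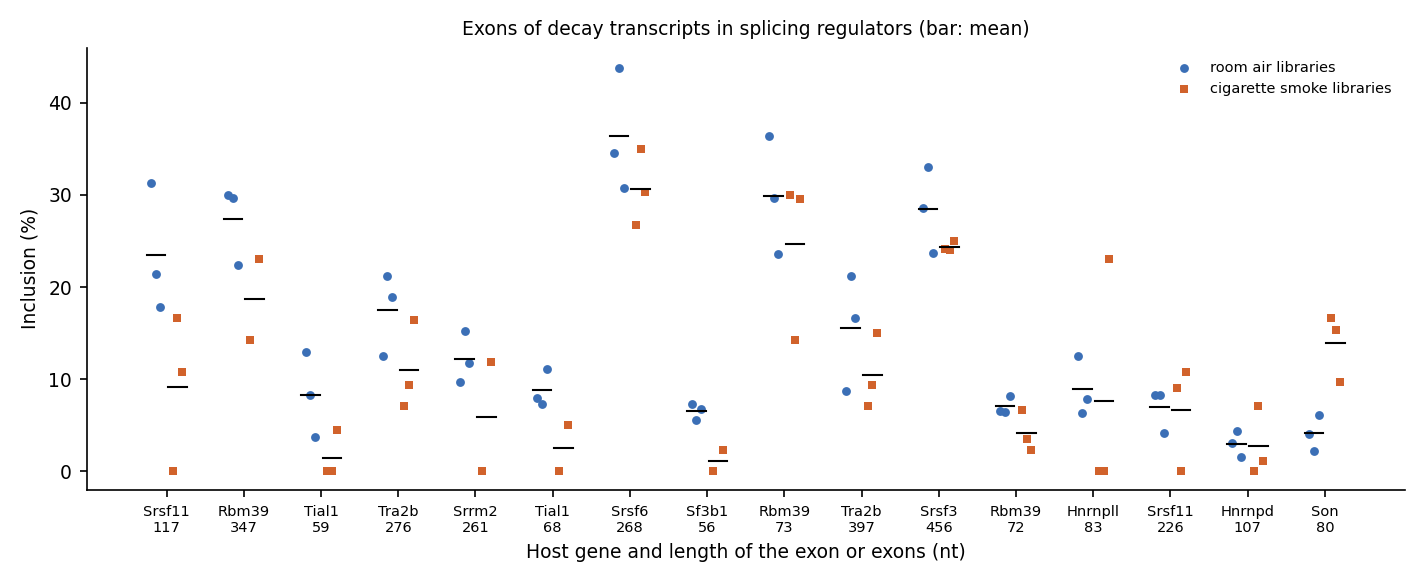
Inclusion in percent (y axis) in each room air library (blue circles) and each cigarette smoke library (orange squares) for the 16 exons or exon groups of decay transcripts in splicing regulators, named by gene and length in nt (x axis), with bars at the group means. The first 14 hold the stop codon and have lower means after smoke, by 0.31 to 14.4 points with overlap in all but the 117-nt exon of Srsf11 among those complete in 6 libraries; Hnrnpd and Son do not hold it.

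Other exons of splicing regulators went in both directions. Mbnl2, a muscleblind gene, had a 54-nt exon at 5.00%, 7.55% and 4.26% against 8.33%, 12.5% and 11.1%, and Hnrnpd a 147-nt exon at 51.3%, 51.4% and 51.7% against 52.8%, 57.9% and 53.5%. Both were separated between groups, as was Son. Of the 34 complete events of the list, 4 were separated upward and 1, Srsf11, downward (14.7%, beside 10.7% of the complete cassette events and 23.1% of all complete events). A 36-nt exon of Mbnl1 stood at 58.7%, 60.0% and 64.9% against 67.4%, 70.0% and 52.1%, and a 78-nt exon of Ptbp1, a pyrimidine-tract repressor, at 44.7%, 46.7% and 35.6% against 40.7%, 40.0% and 47.1%. Both overlapped between groups.

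Of the 87 exons in 5′ untranslated regions, 64 had a lower mean after smoke and 23 a higher one, with a median of -2.36 points. Of the 79 exons of decay transcripts, 53 (67.1%) were lower, 25 higher and 1 equal (median -2.88), beside 66.2% lower over all events. Coding exons divided 560 to 501 (median -0.45), and coding exons below 20% inclusion 69 to 60. The mean over the 46 complete exons of 5′ untranslated regions was 36.4%, 37.4% and 38.2% in room air and 34.2%, 34.0% and 36.6% after smoke. For the 42 complete exons of decay transcripts it was 27.0%, 27.8% and 27.0% against 24.6%, 23.9% and 26.4%. Groups overlapped in the former and not in the latter. Without cigarette smoke 2, 49 of the 87 exons of 5′ untranslated regions were lower and 36 higher, and 48 of the 79 of decay transcripts were lower and 31 higher. Where a retained intron next to the cassette exon was also measured, for 270 members, the intron was lower after smoke in 243, beside 2970 of all 3305 retained introns, and the exon in 147. Of the 1087 other members, leaving out the 15 mutually exclusive ones, 611 were lower. The part of intron-containing RNA in these exon values was not tested.

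Innate immune and NF-kappaB genes hosted 17 events in 16 genes, and none had an unadjusted p under 0.05, beside 10.8% of all events. Means were lower after smoke in 8 and higher in 9, and the median difference was 0.14 points. A 172-nt exon of Tnip1, which encodes a ubiquitin-binding inhibitor of NF-kappaB, was the 1 separated event among 9 complete (11.1%, beside 23.1% of all complete events), at 15.2%, 15.7% and 15.8% against 13.6%, 8% and 10.2%. Tlr7, an endosomal RNA sensor, included a 68-nt exon at 12.8%, 13.1% and 15.5% against 26.9%, 16.7% and 12.4%. Map3k7, which encodes the kinase TAK1, included an 81-nt exon at 35.7%, 31.7% and 31.6% against 40.0% and 36.4% in cigarette smoke 2 and 3. Exons of Tlr4, Irf5, Syk, Card9 and Nlrp3 stood at 90% inclusion or above in every library that had a value.

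Macrophage surface genes hosted 16 events in 8 genes, again with none at an unadjusted p under 0.05 (10.8% of all events) and with 8 means lower and 8 higher. Of 15 complete events 2 were separated (13.3%, beside 23.1% of all complete events). Ptprc, which encodes the leukocyte phosphatase CD45, had a 72-nt exon at 78.0%, 78.2% and 74.5% in room air and at 66.7%, 74.1% and 53.3% after smoke. Every smoke value was lower, by a difference of means of 12.2 points with a smoke SD of 10.5, and Ptprc expression was lower after smoke in the authors' deposited table (log2 fold change -0.55, adjusted p 0.00196).
Ptprc, exon of 72 nt, chr1:138116954-138117025, minus strand: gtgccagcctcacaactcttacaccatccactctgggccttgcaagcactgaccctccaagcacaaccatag

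Itgb2, the beta chain of leukocyte integrins, was the other separated event, with a 149-nt exon at 80%, 81.2% and 79.7% against 70.0%, 74.3% and 79.4%. Fcgr2b, the inhibitory Fc receptor gene, showed how far the smoke libraries could part from each other: its 141-nt exon stood at 21.1%, 18.2% and 21.8% in room air and at 35.3%, 30.3% and 4.71% after smoke. A 54-nt exon in the 5′ untranslated region of Cd36, a scavenger receptor gene, stood at 57.5%, 60.0% and 56.9% against 65.4%, 56.8% and 78.4%. Axl, a receptor for apoptotic cells, included its 27-nt exon at 74.1% to 82.9% and Cd47, the ligand of the inhibitory receptor SIRP alpha, its 63-nt exon at 19.8% to 26.9% over the 6 libraries.

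The list of cytoskeleton and membrane traffic genes, which also holds Pkm with 3 events, hosted 35 events in 17 genes, 18 with a lower and 17 with a higher mean. A 33-nt exon of Numb, an endocytic adaptor gene, was the 1 event (2.86%, beside 10.8% of all events) with an unadjusted p under 0.05, at 0% in all room air libraries and at 7.14% and 2.63% in cigarette smoke 2 and 3. A 76-nt exon of Tpm3 was the 1 separated event of 26 complete (3.85%, beside 23.1% of all complete events), at 93.8%, 91.1% and 92.3% against 97.4%, 94.6% and 96.2%. Chromatin and transcription genes hosted 20 events in 12 genes, 12 lower and 8 higher, with no separated event among 11 complete ones and no unadjusted p under 0.05, beside the same 23.1% and 10.8%. Among them, a 126-nt exon of Ezh2, the H3K27 methyltransferase, stood at 75.0%, 82.3% and 80% against 80%, 76.5% and 90.0%, and a 27-nt exon of Max, the partner of Myc, at 25.5% to 42.4% over the 6 libraries.

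Host gene expression was read from the authors' deposited table, a fit to 24 libraries of which 6 are described here. Of 995 host genes tested, 75 (7.54%) passed an adjusted p of 0.05, 39 higher and 36 lower after smoke, beside 7.69% of all 12082 genes tested, 4.15% higher and 3.53% lower. Of 71 splicing regulators tested, 11 passed, 1 higher (Pcbp1) and 10 lower: Clk1, Hnrnpa2b1, Luc7l2, Luc7l3, Ptbp3, Rbm25, Rbm5, Sf3b1, Srsf11 and Tia1. Their median log2 fold change was -0.17, beside -0.003 for all genes. Among the 9 genes with stop codon exons, Srsf11 (log2 fold change -0.50, adjusted p 0.0142) and Sf3b1 (-0.33, adjusted p 0.0467) were lower in that table. The other values there were -0.41 for Tial1, -0.39 for Rbm39, -0.34 for Srrm2, -0.17 for Srsf6, -0.10 for Srsf3, 0.16 for Tra2b and 0.20 for Hnrnpll, with adjusted p-values from 0.0746 to 0.643.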

How the data were processed

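RNA from 6 macrophage cultures was sequenced with a directional kit, per the labels' protocols; these also describe marrow split from each mouse, but not which mouse gave which library, so p-values measure the spread between these samples. The submitters' processing notes give, with no role, the authors' tools STAR, SAMtools 1.9, bedtools 2.27.1, DESeq2 and the build mm10. The authors deposited percent inclusion per event and library, group medians with their difference, which is another quantity in percentage points, and p-values, as JuncBASE output. The authors' deposited gene table holds mean normalized signal per group, log2 fold changes with standard errors, a Wald score and p-values.

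Inclusion p was turned into log2((p + 1)/(100 - p + 1)), a pseudocount of 1 percentage point, and fitted with limma 3.58.1 in R 4.3.3, group as the term, for events with at least 2 values per group (all 10376). No blank values were imputed. p-values were adjusted by Benjamini-Hochberg over all events. On simulated levels, 200 changed events per size were recovered at 0% for 1 and 2 log2 odds, 40.5% for 4, 74% for 6 and 86% for 8. Host genes, exon positions and sequences came from GENCODE M21 on GRCm38 (98.6% of 6001 known events had annotated exclusion junctions).

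Named events were the 10 lowest p, the 5 largest separated differences each way, mutually exclusive events and 5 gene lists; members and lists were chosen with earlier results of these data known. Slamf7, Rnps1's second exon, microexons and exon positions were described after their values were seen. Splice site scores were not run. Some named events are not reported here.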

Additional observations from a re-analysis of the deposited data

How the results depend on the processing

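Depth is unknown, and values of exactly 0 or 100 have no spread of their own, which limits every p. The count of events past an adjusted p of 0.05 (limma, Benjamini-Hochberg) stayed at 0 with pseudocounts of 0.5 and 5, array weights, a mean level of 5 to 95 percent, the replicate block and the authors' p-values; untransformed percent gave 1 (Rnps1) and events complete in 6 libraries 2 (both Tnfsf13). Leaving out a library gave 0 to 109, the latter without cigarette smoke 3, where 70 of the 109 had 1 smoke value, assumed to vary like room air; with at least 2 values per group, an alternative chosen after seeing the data, it gave 44, and 0 without any other library. At an unadjusted p, the 65 became 40 for complete events and 34 at a mean level of 5 to 95 percent, where fewer were tested, and 55 to 227 without 1 library, the highest without cigarette smoke 3; with at least 2 values per group the range was 35 (without cigarette smoke 2, 795 fitted) to 90. The cause was not tested. The 85 separated events became 56 at a mean level of 5 to 95 percent and 127 to 263 without 1 library (263 of 1326 without cigarette smoke 1 and 227 of 798 without cigarette smoke 3), where fewer values need to separate and, without cigarette smoke 1, more events are complete. Shares over all events are not given here for the unadjusted and separated counts without 1 library. Those counts therefore do not set cassette exons apart from other events. The difference of mean inclusion became -1.02 points at that level and ran from -0.82 (without cigarette smoke 1) to -0.48. The share of events with a lower mean stayed between 53.1% and 58.3% (events with equal means kept in the total). At an adjusted p under 0.01 in the authors' deposited gene table, 30 of 995 host genes (3.02%) and 5 of 71 splicing regulators (7.04%) were called. Over all genes tested it was 366 of 12082 (3.03%).

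With replicate number as a block, 0 events passed and 49 had an unadjusted p under 0.05. Deviations of same-numbered libraries from their group means gave r = 0.02, -0.04 and -0.09 across events. With 3 libraries per group and no label of mouse or batch, these values cannot decide whether same-numbered samples share more than a number. The gene lists held 134 events besides those named by p, by size or as mutually exclusive. None of the 134 was called, and 68 changed sign on leaving out at least 1 library. Another 22 events were those named by p, by size or as the 3 mutually exclusive events with the lowest p. Of these 22, 6 passed an adjusted p of 0.05 (limma, Benjamini-Hochberg) without cigarette smoke 3, and 4 with at least 2 values per group.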
